A study of Mus musculus with 12 samples.

Results

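A group of 10 genes of heme breakdown and iron handling was followed in peritoneal Mφs (PMφs), chosen by name as the mouse genes for heme export from the lysosome (Slc48a1), heme cleavage (Hmox1), biliverdin reduction (Blvra and Blvrb), iron storage (Fth1 and Ftl1), iron export from the cytosol (Slc40a1), iron export from the phagosome (Slc11a1) and iron uptake (Tfrc and Slc11a2). The 10 genes were chosen with earlier results of these data known. All 10 were found among the 43278 gene symbols of the deposited table. The study asked how accumulation of oxidized low-density lipoprotein (oxLDL) changes the transcriptome of PMφs before and after stimulation with LPS, the bacterial endotoxin sensed by TLR4. Poly(A) RNA was sequenced from 12 libraries, 3 in each of 4 groups. All groups were wild-type C57BL/6J mice of 8 to 12 weeks of age, littermates of both sexes, whose cells were drawn into the peritoneal cavity by 1 ml of 4% aged thioglycolate, harvested 4 days later and used as adherent cells after 18 h. Control PMφs received neither agent, oxLDL PMφs were cultured for 24 h with 100 µg/ml human medium oxLDL, LPS PMφs received 10 ng/ml ultrapure LPS, and oxLDL+LPS PMφs received oxLDL and then LPS. The time between LPS and harvest of these libraries was not given in the sources used here. The methods describe cells of up to 10 mice as pooled and then divided among conditions. A library thus stands for a pool and not a single animal. Without a block, p-values measure the spread between pools. With the replicate number as a block, they measure how far the difference between groups varies from 1 replicate number to another.

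Macrophages take up heme with dying red cells and hemoglobin. Heme oxygenase 1 opens the ring and releases iron, carbon monoxide and biliverdin, and the freed iron is stored in ferritin or exported by ferroportin. Iron-regulatory proteins bind hairpins called iron-responsive elements in the mRNAs of this pathway, where they block translation from the 5′ UTR or protect the mRNA from the 3′ UTR when iron is scarce, and NRF2 and BACH1 act as activator and repressor of Hmox1 transcription. C57BL/6J mice carry a missense allele of Slc11a1 whose product does not function, so the Slc11a1 values below are those of an mRNA without an active transporter.

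The values are read counts that the authors normalized by 1 factor per library and rounded, and they sum to 17152972 to 26384551 per library, from an implied 16724982 to 26180291 reads. Macrophage markers summed to 226714 to 318793 in every library, the 8 erythroid markers to 1 to 10 (each under 10 in all 12 libraries) and the T cell markers to 0 to 6. The list of 5 neutrophil markers summed to 1111 to 1814 without LPS and 2542 to 6397 with it, of which Csf3r carried most. S100a8 was at 31 to 49 without LPS and at 74 to 248 with it. Retnlg did not pass 3, S100a9 did not pass 1 and Ly6g was at 0 in all libraries. Eosinophil markers, nearly all Siglecf, summed to 180 to 383 without LPS and 55 to 124 with it, B cell markers to 38 to 83 and mast cell markers to 19 to 84 in all groups. Mesothelial and fibroblast markers summed to 2775 to 17135 and overlapped across the 4 groups. The part of these cells in the results was not tested, and in RNA from a whole culture fewer cells of a type and less RNA per cell cannot be told apart. Sex-linked genes separated the libraries by replicate number. Replicate 2 had Ddx3y at 0 to 2 and Xist at 5933 to 7751 in all 4 groups, as in cells of females alone. Replicate 1 of control and oxLDL had Xist at 1 and 2, as in cells of males alone, but replicate 1 of LPS and oxLDL+LPS had Xist at 6331 and 3812 together with Ddx3y at 459 and 439. Replicate 1 therefore does not come from the same mice with and without LPS, whereas libraries with and without oxLDL match in these genes within each LPS state.

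A search for iron-responsive elements in the reference transcripts matched in 4 of the 10 genes, and the sites are shown because these genes divide between storage or export on the one side and uptake on the other. A site of 27 bases was taken where a bulged C was followed by a stem of 5 pairs around the loop CAGTGN, whose last base was not G, and where at least 4 of the 5 positions below the C paired as well. It was found in the 5′ UTR of 6 of 21877 coding genes (0.0274%), 3 of them among the 10, and in the 3′ UTR of 7 (0.0320%), of which Tfrc was the only one of the 10. Some transcripts of Slc11a2 are known to carry an element in the 3′ UTR, which a search with these letters does not match. The capitals mark the loop. The 5′ UTR sites were in Fth1 at chr19:9982733-9982759 on the plus strand, in Ftl1 at chr7:45459780-45459806 on the minus strand and in Slc40a1 at chr1:45925466-45925492 on the minus strand (GRCm38):
Fth1: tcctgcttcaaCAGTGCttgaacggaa
Ftl1: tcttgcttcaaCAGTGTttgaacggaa
Slc40a1: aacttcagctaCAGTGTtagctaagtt
The 4 sites in the 3′ UTR of Tfrc were on the plus strand, at chr16:32631220-32631246, chr16:32631599-32631625, chr16:32631664-32631690 and chr16:32631711-32631737, in this order:
Tfrc site 1: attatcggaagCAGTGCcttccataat
Tfrc site 2: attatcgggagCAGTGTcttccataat
Tfrc site 3: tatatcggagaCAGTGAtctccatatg
Tfrc site 4: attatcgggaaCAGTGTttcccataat
The ferritin sites are identical at 25 of 27 bases and each matches that of Slc40a1 at 13, and the Tfrc sites match each other at 17 to 25. A match is a description of the letters, and the binding of a protein to these sites was not measured.

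The 10 genes spanned 4 orders of magnitude. Per kilobase of exon, Ftl1 (185991 ± 38789 in controls, SD, n = 3) and Fth1 (79002 ± 12027) stood highest in all 4 groups, followed by Hmox1 (3695 ± 234), Slc11a1 (2861 ± 291) and Slc48a1 (1742 ± 212), and Slc40a1 stood lowest (16.5 ± 9.0). Between these lay Tfrc, Blvra, Blvrb and Slc11a2, at 720 ± 261, 536 ± 36, 534 ± 207 and 267 ± 17 per kilobase in controls, of which the first 3 overlapped in spread. Both ferritins together made up 2.43 to 4.73% of a library, and Fth1 was the gene with the highest value of all in every oxLDL+LPS library. In 6 of the 10 genes (Blvrb, Slc48a1, Ftl1, Slc40a1, Slc11a1 and Tfrc) replicate 2 was the lowest library of all 4 groups, which held for 8.59% of 13482 genes, so much of the spread within a group was between pools.

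**Figure D1:**
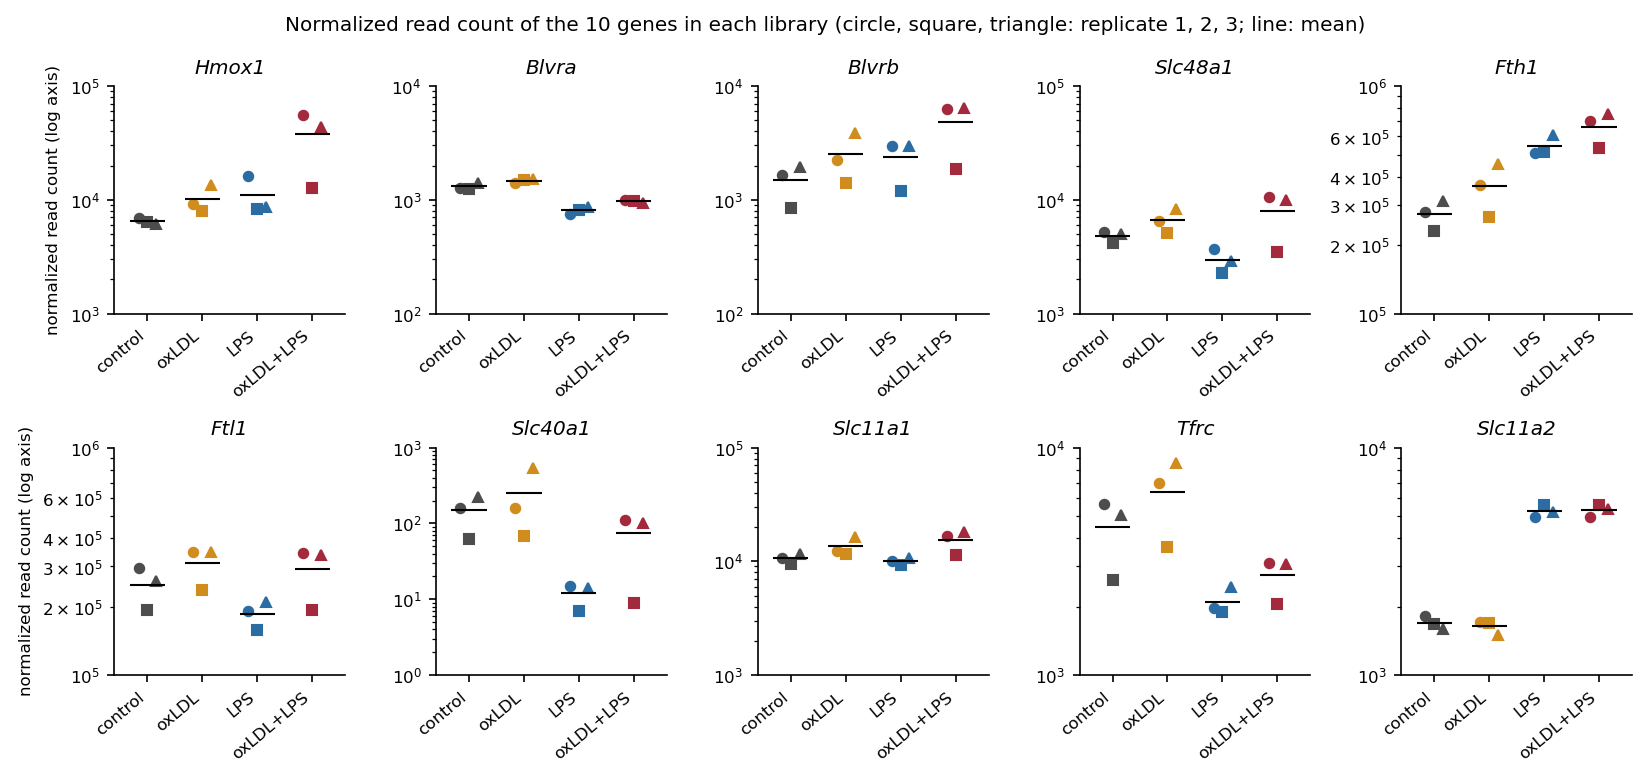
Normalized read count (log axis) of each of the 10 genes in the 12 libraries, by group; circles, squares and triangles are replicates 1, 2 and 3 and the line is the mean of 3. Hmox1 and Slc48a1 were highest in replicates 1 and 3 of oxLDL+LPS, Slc40a1 fell from 63 to 225 in controls to 7 to 15 with LPS, and the groups with and without LPS did not overlap for Slc11a2.

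Loading with oxLDL alone was accompanied by slightly higher values of nearly the whole group. In all 3 pairs of libraries of the same replicate number, 9 of the 10 genes were higher with oxLDL than in controls, against 17.5% of the 12751 genes tested, and Slc11a2 was the exception. The median log2 difference of the 10 was 0.42, beside −0.01 over all tested genes, and it was 0.27, 0.30 and 0.64 in replicates 1, 2 and 3. limma without a block called none of the 10 at an adjusted p under 0.1 (adjusted p = 1 for each) and no gene at all, and 381 genes (2.99%) had an unadjusted p under 0.05, among them Hmox1, Blvra and Slc48a1. With the replicate number as a block, limma called 601 genes (4.71%), 229 of them higher (1.8%), and 6 of the 10 were called, all higher: Hmox1, Blvra, Blvrb, Slc48a1, Slc11a1 and Tfrc. The blocked count of the 10 was 5, 4 and 8 when replicates 1, 2 and 3 were left out in turn, beside 214 of 12376 (1.73%), 139 of 12368 (1.12%) and 1285 of 12451 (10.3%) of all genes, from fits with little left to estimate the spread. Hmox1 was the only one of the 10 whose oxLDL and control libraries did not overlap, which held, in this direction, for 3.79% of genes.

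When LPS followed, the same 9 genes were again higher with oxLDL in all 3 pairs, against 21% of the 12786 genes tested. The comparisons with and without LPS share no library, but they are not independent repeats. Deviations from the group means correlated at 0.30 to 0.66 across LPS states between libraries of the same replicate number. The median of the 10 was 0.60 beside −0.01 over all tested genes, but it was 0.78 and 0.72 in replicates 1 and 3 and 0.29 in replicate 2. Only replicate 2 held cells of females alone, so sex cannot be told apart from other differences between pools. Without the block limma called none of the 10 and no gene at all, and 890 genes (6.96%) had an unadjusted p under 0.05, among them Hmox1, Blvra, Slc48a1 and Slc11a1. With the block 1682 genes (13.2%) were called, 565 of them higher (4.42%), and 7 of the 10 were called, all higher: Hmox1, Blvra, Blvrb, Slc48a1, Slc40a1, Slc11a1 and Tfrc. That count fell to 1 (Blvrb) without replicate 1, where 71 of 12266 genes (0.579%) were called. It fell to 0 without replicate 3, where none of 12452 was. In both of these fits Slc40a1 was too low to be tested. The count was 8 without replicate 2, where 2945 of 12334 (23.9%) were called. When the oxLDL+LPS library of replicate 2 alone was left out, the fit without a block called 91 of 12627 genes (0.721%). Hmox1, Slc48a1 and Slc40a1 were among them (limma adjusted p = 0.0719, 0.043 and 0.0601), and the library left out held their lowest values in its group. The groups did not overlap for Blvra and Slc11a1, and 6.18% of genes were higher without overlap.

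**Figure D2:**
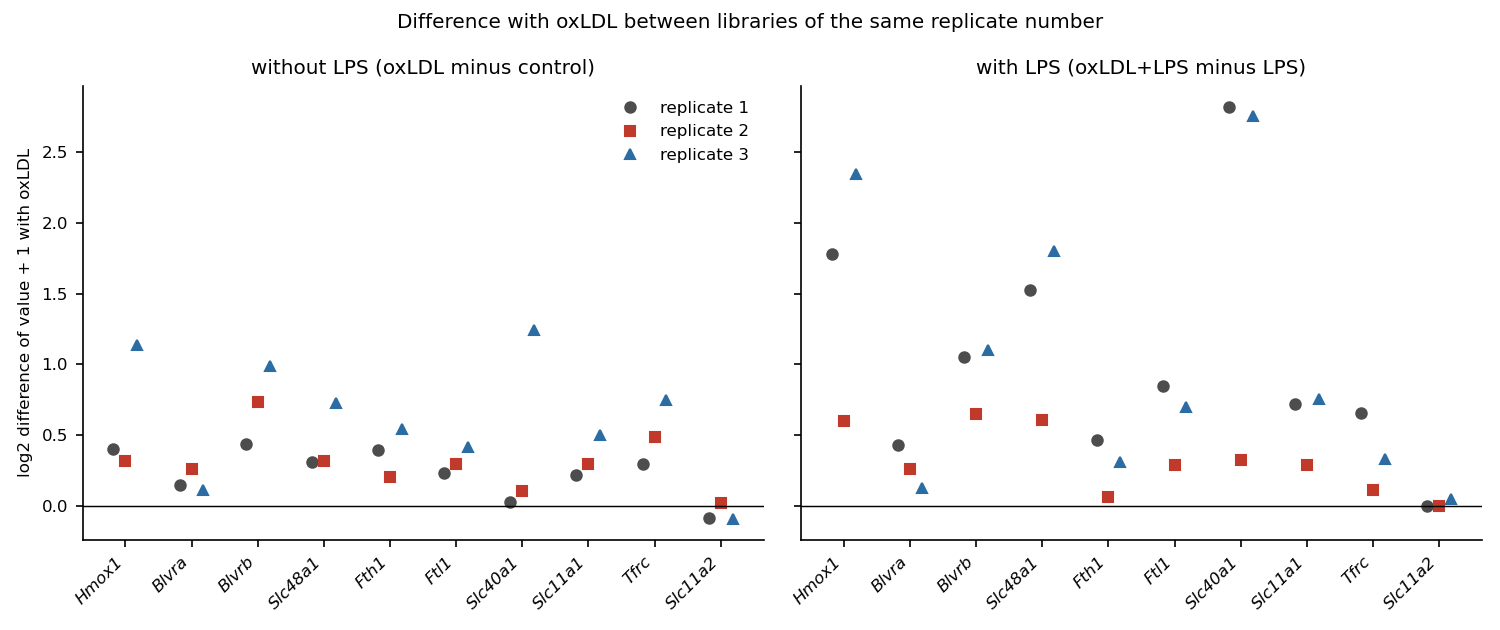
Difference in log2(value + 1) with oxLDL between libraries of the same replicate number, without LPS (left) and with LPS (right), for the 10 genes; each marker is 1 pair. All pairs but those of Slc11a2 lie above 0, and with LPS the pairs of replicate 2 lie closest to 0 for Hmox1 (0.60), Slc48a1 (0.61) and Slc40a1 (0.32).

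Whether oxLDL acted differently with and without LPS was tested as an interaction over all 12 libraries. None of the 10 genes, and none of 13482, was called, with or without the block, and 418 (3.1%) and 967 (7.17%) had an unadjusted p under 0.05. The estimates were largest for Slc40a1, at 1.51 ± 1.32 (SE, log2), Hmox1, at 0.96 ± 0.65, and Slc48a1, at 0.86 ± 0.51, and with the block Slc40a1 and Slc48a1 had unadjusted p of 0.0468 and 0.0213 (adjusted p = 0.695 and 0.669). This block joins replicate 1 across LPS states, a pairing that the sex-linked genes do not bear out. A larger effect of oxLDL on these genes after LPS was thus not shown.

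LPS changed the group in both directions, and so it did the transcriptome. Against controls, limma called 8039 of 13023 genes (61.7%), 31.4% higher and 30.3% lower, and called 7 of the 10, with Hmox1, Fth1 and Slc11a2 higher and Blvra, Slc48a1, Slc40a1 and Tfrc lower. These 7 were also those whose groups did not overlap (63.2% of all genes), and with the block 9 were called (68.7%), Blvrb and Ftl1 besides. In oxLDL-loaded cells it called 7030 of 12900 genes (54.5%), 28.2% higher and 26.3% lower, and 5 of the 10, with Hmox1, Fth1 and Slc11a2 higher and Blvra and Tfrc lower. With the block 7 were called (63.4%), Blvrb and Slc40a1 besides, and the groups did not overlap for 4 (57.6%). Both shares lie near those of all genes. Scaled to equal totals per library, the median of all genes moved from near 0 to −0.49 without and −0.41 with oxLDL, and the share of higher calls from 50.9 to 23.0% and from 51.7 to 23.3%, so directions with LPS hold relative to the authors' normalization. Since replicate 1 differs in sex between the LPS states, both comparisons were repeated without it: 6 of the 10 were called without oxLDL, Tfrc being lost (adjusted p = 0.12), beside 6549 of 12092 genes (54.2%), and 2 with oxLDL (Blvra and Slc11a2), beside 5412 of 12113 (44.7%). With the block these fits called 9 of the 10 beside 8085 genes (66.9%) and 7 beside 7550 (62.3%).

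**Figure D3:**
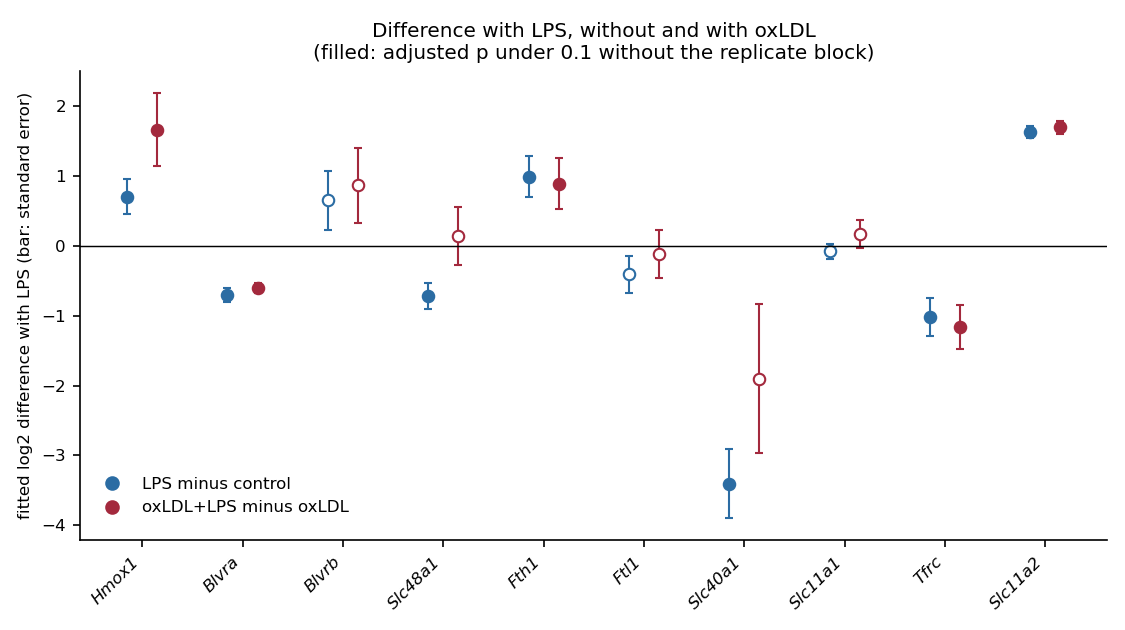
Fitted log2 difference with LPS of the 10 genes without oxLDL (blue) and with oxLDL (red), with the standard error; filled points were called at an adjusted p under 0.1 without the block. Slc11a2 and Fth1 lie above 0 and Blvra and Tfrc below 0 in both, and Slc48a1 was called, lower, only in the comparison without oxLDL.

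Hmox1, the inducible heme oxygenase, had its highest values in cells given both agents. It was at 6901, 6421 and 6087 in control replicates 1, 2 and 3 (6470 ± 409, SD, n = 3), at 9106, 7989 and 13359 with oxLDL (10151 ± 2834), at 16282, 8326 and 8635 with LPS (11081 ± 4507) and at 55988, 12622 and 43842 with both (37484 ± 22371). Every library given an agent was above every control, oxLDL and LPS overlapped, and replicate 2 of oxLDL+LPS was below replicate 1 of LPS. With oxLDL the log2 difference was 0.62 ± 0.18 (SE) without LPS, an adjusted p of 1, or 0.0228 with the block. After LPS it was 1.58 ± 0.56, with an adjusted p of 0.698, or 0.0109 with the block, and the pairs gave 1.78, 0.60 and 2.34. With LPS Hmox1 rose by 0.71 ± 0.25 (limma adjusted p = 0.0415), a call that was lost with equal totals (0.22, adjusted p = 0.516), with all 12 libraries in one fit (0.218) and without control replicate 3 (0.105). In oxLDL-loaded cells LPS raised it by 1.66 ± 0.53 (adjusted p = 0.0354), which was lost without oxLDL replicate 2 (0.111), without oxLDL+LPS replicate 3 (0.104) or without either whole replicate 1 or 3 (0.209 and 0.13).

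Slc48a1, known as HRG1, which carries heme out of the lysosome into the cytosol, fell with LPS in cells without oxLDL. Its values were 5260, 4137 and 4979 in controls, 6515, 5151 and 8254 with oxLDL, 3703, 2280 and 2875 with LPS and 10657, 3481 and 10006 with both. The LPS libraries were below all controls, while replicates 1 and 3 of oxLDL+LPS were the highest of all 12 and replicate 2 lay among the LPS libraries. The fall with LPS was 0.72 on the log2 scale (log2 difference −0.72 ± 0.18, limma adjusted p = 0.0113), and the call was lost with all 12 libraries in one fit (0.113). In oxLDL-loaded cells the difference with LPS was 0.14 ± 0.42 (adjusted p = 0.813), −0.25 with equal totals, and 0.66 without oxLDL+LPS replicate 2 (adjusted p = 0.0297). Slc48a1 was higher with oxLDL by 0.45 ± 0.17 without LPS (block adjusted p = 0.0113) and by 1.31 ± 0.43 after LPS (0.698, block 0.00737).

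The biliverdin reductases went in different directions with LPS. Blvra, which makes bilirubin from the biliverdin that heme oxygenase releases, was at 1269, 1255 and 1412 in controls, 1403, 1503 and 1525 with oxLDL, 744, 812 and 859 with LPS and 1004, 971 and 938 with both. All LPS-treated libraries were below all others, and its spread between pools was small. Blvra fell by 0.70 on the log2 scale with LPS (−0.70 ± 0.10, adjusted p = 0.000568) and by 0.60 in oxLDL-loaded cells (−0.60 ± 0.08, adjusted p = 0.000612), under every alternative run. Its differences with oxLDL were the smallest of those called with the block, at 0.17 (block adjusted p = 0.0967) and, after LPS, 0.27 (0.0838). Blvrb, which reduces flavins as well as biliverdin, was at 1652, 846 and 1959, then 2241, 1405 and 3894 with oxLDL, 2993, 1193 and 2978 with LPS and 6218, 1868 and 6382 with both. Replicate 2 had the lowest value of every group, all groups overlapped, and the fit without a block called Blvrb in no comparison. With the block Blvrb was called higher in all 4: with oxLDL by 0.72 (adjusted p = 0.00118), with oxLDL after LPS by 0.93 (0.00347), with LPS by 0.65 (0.000982) and with LPS in oxLDL-loaded cells by 0.87 (0.00918).

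LPS raised the ferritin heavy chain, the subunit with ferroxidase activity, while the call of the light chain, which nucleates the iron core, depended on the block and the scaling. Fth1 was at 279370, 229932 and 312868 in controls, 367345, 265324 and 456013 with oxLDL, 507278, 511360 and 608352 with LPS and 699687, 534692 and 755327 with both. Every library with LPS was above every library without it. Fth1 rose with LPS by 0.99 ± 0.29 (limma adjusted p = 0.021) and in oxLDL-loaded cells by 0.89 ± 0.36 (adjusted p = 0.0819), and the second call was lost with equal totals (0.50, adjusted p = 0.272) and without oxLDL replicate 1 or 2 or oxLDL+LPS replicate 1 or 3 (0.169 to 0.23). Ftl1 was at 295233, 192845 and 259607 in controls, 347572, 237368 and 346075 with oxLDL, 191199, 158418 and 208913 with LPS and 343763, 193404 and 338392 with both. Its LPS and control libraries overlapped, and so did oxLDL+LPS and oxLDL. Ftl1 differed by −0.41 ± 0.26 with LPS (adjusted p = 0.23, or 0.0798 with the block), was called lower with equal totals (−0.89, adjusted p = 0.0121), and differed by −0.11 ± 0.34 in oxLDL-loaded cells (0.814, block 0.581). With oxLDL both chains were higher in all 3 pairs, Fth1 by 0.38 without and 0.28 with LPS and Ftl1 by 0.32 and 0.61, and none of these was called, with or without the block (block adjusted p = 0.266, 0.684, 0.324 and 0.172).

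The ratio of Fth1 to Ftl1 within a library separated the cells with LPS from those without it. It was 0.95, 1.19 and 1.21 in controls (1.11 ± 0.15, SD, n = 3), 1.06, 1.12 and 1.32 with oxLDL (1.16 ± 0.14), 2.65, 3.23 and 2.91 with LPS (2.93 ± 0.29) and 2.04, 2.76 and 2.23 with both (2.34 ± 0.38). All libraries with LPS were above 2 and all without it below 1.4, and the ratio needs no scaling between libraries. It was not tested, and it shows unequal change of the chains, not which of them moved. The near copies Ftl2 (5 to 22), Fth-ps2 (0 to 5) and Fthl17 (0) had few reads, although other ferritin pseudogenes could share reads with both genes.

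**Figure D4:**
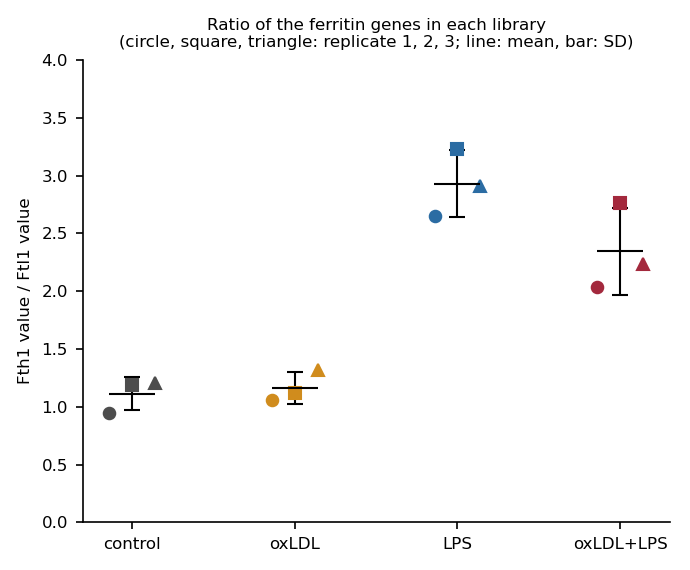
Ratio of the Fth1 value to the Ftl1 value in each of the 12 libraries by group (linear axis from 0); circles, squares and triangles are replicates 1, 2 and 3, the line is the mean and the bar the SD of 3. The LPS and oxLDL+LPS libraries lie between 2.04 and 3.23, all above the control and oxLDL libraries, at 0.95 to 1.32.

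Slc40a1, ferroportin, the only known iron exporter of the cell surface, had the lowest values, and of the 10 it had the largest differences with LPS and with oxLDL after LPS. It was at 157, 63 and 225 in controls, 160, 68 and 533 with oxLDL, 15, 7 and 14 with LPS and 112, 9 and 100 with both. The 3 LPS libraries were below all controls, but in oxLDL+LPS replicate 2 stayed among the LPS libraries and replicates 1 and 3 reached the range of the controls. These low values rest on few reads: 7 in LPS replicate 2 came from an implied 8 reads, with an exact 95% interval of 3.19 to 14.6 for counting error, and 9 in oxLDL+LPS replicate 2 from 8 reads, with 3.96 to 18.1. Slc40a1 fell with LPS by 3.41 on the log2 scale (−3.41 ± 0.50, limma adjusted p = 0.000763), between −3.93 and −3.02 when libraries were left out. In oxLDL-loaded cells the difference was −1.90 ± 1.07 (adjusted p = 0.186, or 0.00958 with the block), −0.76 without oxLDL+LPS replicate 2 and −2.60 without oxLDL replicate 2. With oxLDL after LPS Slc40a1 was higher by 1.96 ± 0.92 (0.719, block 0.0384), with pairs of 2.82, 0.32 and 2.75. Without LPS the difference was 0.46 ± 0.75 (block 0.266), and it turned to −0.32 without oxLDL replicate 3, the library at 533.

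Slc11a1, NRAMP1, which moves iron out of the phagosome in strains with a working allele, did not pass the test with LPS. It was at 10669, 9489 and 11640 in controls, 12428, 11624 and 16479 with oxLDL, 10030, 9347 and 10648 with LPS and 16517, 11426 and 17944 with both. The oxLDL+LPS libraries were all above the LPS libraries, and the other groups overlapped in part. LPS changed it by −0.08 ± 0.11 (adjusted p = 0.583) and, in oxLDL-loaded cells, by 0.17 ± 0.21 (0.537), which was −0.22 with equal totals, where the first difference was called (−0.56, adjusted p = 0.00224). With oxLDL it was higher by 0.34 ± 0.14 (block adjusted p = 0.0159) and, after LPS, by 0.59 ± 0.18 (0.698, block 0.0171).

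The uptake genes Tfrc and Slc11a2 moved apart with LPS. Tfrc, the transferrin receptor that brings iron into the endosome, was at 5664, 2620 and 5073 in controls, 6971, 3669 and 8534 with oxLDL, 1971, 1894 and 2437 with LPS and 3111, 2043 and 3074 with both. The LPS-treated libraries were below the untreated ones within each oxLDL state, and replicate 2 was the lowest of every group. Tfrc fell with LPS by 1.02 on the log2 scale (−1.02 ± 0.28, adjusted p = 0.0154) and by 1.16 in oxLDL-loaded cells (−1.16 ± 0.32, adjusted p = 0.0199), and without replicate 1 in both groups these were −0.76 (0.12) and −1.16 (0.105). With oxLDL it was higher by 0.51 ± 0.38 (block adjusted p = 0.00407) and, after LPS, by 0.37 ± 0.19 (0.742, block 0.0612). Slc11a2, DMT1, which takes the iron on from the endosome to the cytosol, was at 1812, 1669 and 1601 in controls, 1707, 1696 and 1501 with oxLDL, 4955, 5578 and 5196 with LPS and 4951, 5572 and 5363 with both. The libraries with LPS were all above those without it, and the groups with oxLDL overlapped those without it. Slc11a2 rose by 1.63 ± 0.09 with LPS (limma adjusted p = 5.15e-06) and by 1.70 ± 0.09 in oxLDL-loaded cells (7.69e-06), under every alternative run. Its differences with oxLDL were the smallest of the 10, at −0.05 ± 0.08 without LPS (block adjusted p = 0.644) and 0.01 ± 0.10 after it (0.99, block 0.934).

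Among the 4 genes with a matched iron-responsive element, the 3 with the site in the 5′ UTR did not share a direction with LPS: Fth1 rose, Slc40a1 fell, and Ftl1 did not pass the test but was called lower with the block or with equal totals. Tfrc, with its 4 sites in the 3′ UTR, fell. Elements in the 5′ UTR act on translation, which read counts do not measure, and a part of any of these elements in the changes was not tested. An antioxidant response element, the sequence to which NRF2 binds with small MAF proteins, was searched as TGACNNNGC on both strands from 250 bases before to 50 bases after the start in RefSeq promoters (GRCm38.p6). It was present in 12.4% of 32851 promoters. Sequence outside this window was not searched, so a gene without a match may have an element elsewhere. Promoters were in the table for 6 of the 10 genes (Blvra, Blvrb, Fth1, Ftl1, Slc11a1 and Tfrc) and not for Hmox1, Slc48a1, Slc40a1 and Slc11a2, and 1 of the 9 promoters of these 6 genes had a match. That match was in Blvra, at chr2:127070599-127070625, shown on the gene's plus strand with the motif, which lies on the minus strand, in capitals:
Blvra: acgggaattGCTCGGTCAaggctccgc

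Wider lists placed the 10 genes among 66 others of heme and iron metabolism, 64 of them in the table. With LPS, 19 of 52 tested were called higher and 20 lower, or 75% beside 61.7% of all genes, and in oxLDL-loaded cells 19 and 16 of 52, or 67.3% beside 54.5%. The difference from all genes was not tested. With oxLDL none was called without the block, and with it 1 of 54 was called without LPS and 7 of 53 after it (4 higher and 3 lower). The same blocked fits called 4.71% of all genes without LPS and 13.2% after it. The 10 genes had larger shares called with the block under oxLDL than the wider lists. This difference was not tested, and the 10 genes and the lists were chosen with earlier results of these data known.

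The list of Hmox1 regulators also holds Hmox2, the constitutive heme oxygenase, which is no regulator. All 7 tested regulators were called with LPS, 5 higher and 2 lower, and Hmox2 was called higher, by 0.60 without and 0.65 with oxLDL (adjusted p = 0.00181 and 0.0012). Of all genes, 61.7% were called with LPS without oxLDL and 54.5% with it, and whether this list differs from them was not tested. Nfe2l2, which encodes NRF2, was at 5020 to 6475 in controls and at 10443 to 12297 with LPS. In oxLDL-loaded cells LPS raised it by 1.05 on the log2 scale (adjusted p = 0.000256). Keap1, which directs NRF2 to degradation, rose by 1.67 without and 1.49 with oxLDL (2.75e-05 and 6.32e-06). The small MAF genes Mafk and Maff rose by 1.77 and 3.39 without oxLDL (4.9e-05 and 8.52e-05). Bach1 was at 2649 to 2958 in controls and lower with LPS, at 1253 to 1726. Bach2, a repressor related to Bach1, fell by 3.06 (0.000498), to low values of 6 to 17 with LPS. None of the list passed the test with oxLDL without the block. With the block, after LPS, Mafg was higher by 0.39 (adjusted p = 0.0839) and Maff lower, at −0.54 (0.00928).

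Of the 8 tested genes of heme synthesis, 1 rose with LPS and 5 fell, or 4 in oxLDL-loaded cells. The share of all genes called was 61.7% with LPS and 54.5% in oxLDL-loaded cells. Alas1, the rate-limiting step, rose by 1.83 (adjusted p = 2.03e-05), and those that fell without oxLDL included Fech, which inserts the iron (−0.64, adjusted p = 0.00109), and Urod (−0.60, 0.00173). With oxLDL all 8 were higher in the fit, by a median of 0.06 without LPS and 0.23 after it, beside −0.01 over all tested genes in both. With the block Alas1 was called without LPS (0.49, adjusted p = 0.0113), and Alas1 and Fech were among those called after it (0.54 and 0.28, with adjusted p of 0.0356 and 0.089). Of the genes for heme transport and scavenging, 1 of 9 rose with LPS, Hp for haptoglobin (3.35, 0.00315), and 5 fell, among them Slc46a1, a heme and folate carrier (−1.27, 0.000342), and Lrp1, the receptor for heme bound to hemopexin (−1.17, 0.000753).

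With LPS, the list for iron uptake and reduction had 3 genes called higher and 1 lower of 8 tested, and that for iron chaperones and mitochondrial iron 5 and 3 of 11. The share of all genes called in this comparison was 61.7%. Cp, ceruloplasmin, the ferroxidase that works with ferroportin, rose with LPS by 4.15 (adjusted p = 4.95e-05), and it was lower with oxLDL after LPS (−1.57, adjusted p = 0.698, block 0.0116). Slc39a14, an importer of iron not bound to transferrin, rose by 2.52 (4.89e-06), and Steap3, the endosomal ferrireductase that works with Tfrc and Slc11a2, fell by 2.94 (6.73e-07). Slc25a37, mitoferrin 1, rose by 2.70 (2.03e-05) and its relative Slc25a28 by 0.82 (0.000575). Of the 6 tested iron regulators, 2 were called higher with LPS and 4 lower. Ireb2, an iron-regulatory protein, rose by 0.50 (0.00101), as did Fbxl5, which degrades it, by 0.68 (0.0011). Hfe fell by 1.09 (0.000602). Aco1, the other iron-regulatory protein, was at 1795 to 2026 in controls and lower with LPS, at 1222 to 1420. In oxLDL-loaded cells Aco1 was called lower as well (−0.43, adjusted p = 0.00262). Lcn2, which binds bacterial siderophores, had the largest difference of all these lists, at 6.59 (3.83e-06). Trf, transferrin, differed by −0.28 (adjusted p = 0.372, block 0.0851).

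**Figure D5:**
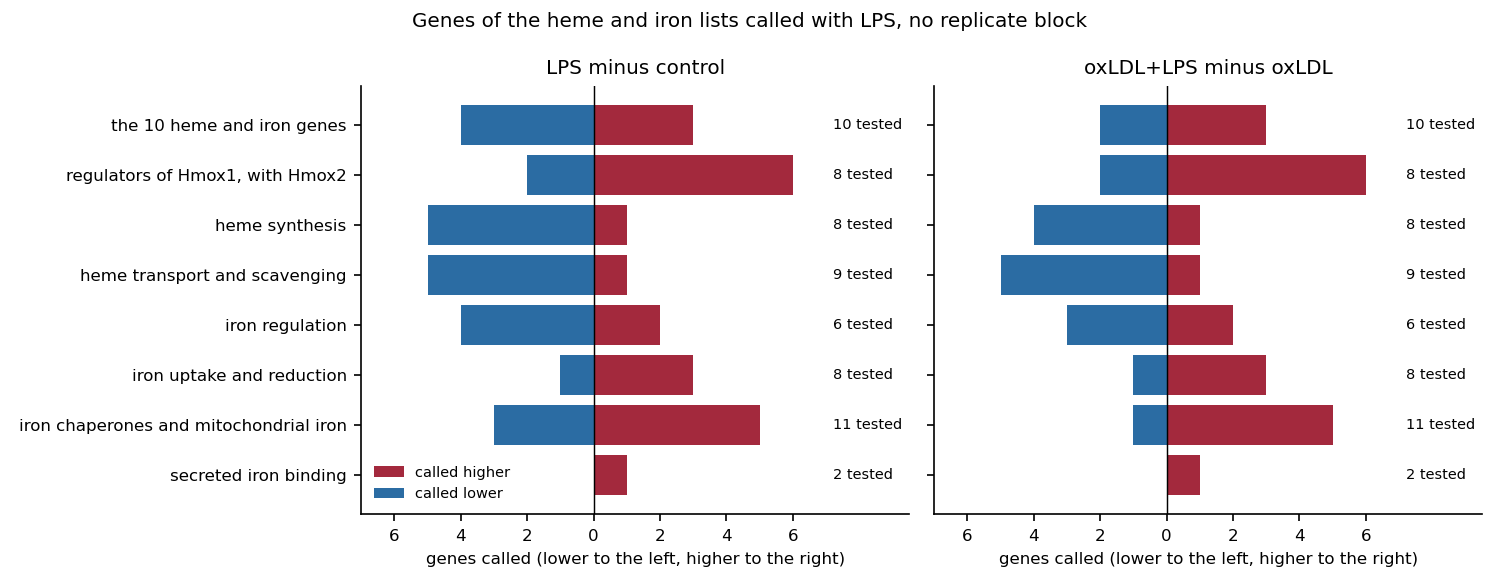
Number of genes called with LPS, higher to the right and lower to the left, in the 10 heme and iron genes and 7 wider lists, without oxLDL (left panel) and with oxLDL (right panel), from fits without the block; the number tested stands at the right of each bar. The list of Hmox1 regulators, with Hmox2, had 6 higher and 2 lower of 8 in both, and heme synthesis 1 higher of 8 in both, with 5 and 4 lower. The share of all genes called was 61.7% (left) and 54.5% (right).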

How the data were processed

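Per the authors' methods and the labels, directional poly(A) libraries were sequenced, adaptors were removed (Trimmomatic 0.32), reads were mapped to mm10 (GRCm38; STAR 2.5.1b) and exonic reads were counted per gene with featureCounts. The deposited table holds whole-number scores and not the counts themselves: its low values keep the steps of counts that were divided by a factor for each library and then rounded. Count tests were therefore not run. Of 43278 symbols, 18273 were at 0 everywhere and 25 had become dates. Implied reads are the sum of a library divided by the step of 1 read, which was estimated. On simulated columns the estimate of this step was off by up to 9.09%. The counting intervals of Slc40a1 do not include this error.

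Values were compared as log2(value + 1) with limma 3.58.1 in R 4.3.3 (lmFit, then eBayes with a trend). A gene was tested if 3 or more libraries of the fit reached a value of 10. p-values were adjusted by Benjamini-Hochberg over all tested genes and called under 0.1, the authors' threshold. Each comparison used its own 6 libraries, and the interaction used all 12. Standard errors (SE) come from these fits and the SD from 3 libraries. An exact permutation test of 3 against 3 cannot go below p = 0.1. The code was tested on simulated data.

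Over 11186 genes, deviations from the group means correlated at 0.69 to 0.73 (control and oxLDL) and 0.66 to 0.73 (LPS and oxLDL+LPS) between libraries of the same replicate number, at 0.30 to 0.66 across LPS states, and at −0.53 to 0.07 between different numbers. The number was therefore used as a block beside the fit without it. For replicate 1 the sex-linked genes do not bear out this pairing across LPS states.

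The 10 genes and all lists were chosen with earlier results of these data known. All 10 are named, and of each wider list up to 4 called genes per comparison, by smallest p, from which the text gives a part, and some genes under this rule are not reported here. Lengths, positions and UTRs came from GENCODE M21 (GRCm38). Whether counting used the strand was not given in the sources used here.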

Additional observations from a re-analysis of the deposited data

How the results depend on the processing

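Counts of the 10 genes called moved with the block and with the replicates left out. With the replicate block the count went from 0 to 6 for oxLDL without LPS and from 0 to 7 for oxLDL after LPS, and in the comparisons with LPS it stayed within 1.5 times. With both libraries of a replicate number left out, the blocked count was 4 to 8 for oxLDL without LPS (5 without replicate 1), 1, 8 and 0 for oxLDL after LPS and 7 to 8 for LPS in oxLDL-loaded cells. Leaving out single libraries without the block gave 0 to 3 for oxLDL after LPS, where oxLDL+LPS replicate 2 decided, and 3 to 7 for LPS in oxLDL-loaded cells, and leaving out a replicate number in both groups, an alternative chosen after the data were seen, gave 0 to 3 and 2 to 7 (3 without replicate 3). Pseudocounts of 0.5 and 10, filters, the median of ratios and no trend changed no count by over 1.5 times. Slc40a1 could not be tested with a value of 10 required in every library of a fit with LPS. Nor could it be tested for oxLDL after LPS without replicate 1 or 3 in both groups.

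Of differences that were not called, some turned sign. With equal totals, Slc48a1 and Slc11a1 were at −0.25 and −0.22 for LPS in oxLDL-loaded cells. Without single libraries, Slc40a1 ranged from −0.32 to 1.15 and Slc11a2 from −0.092 to 0.0083 for oxLDL without LPS, Slc48a1 from −0.14 to 0.66 (−0.14 without replicate 1 in both groups, with or without the block) and Ftl1 from −0.30 to 0.16 for LPS in oxLDL-loaded cells, and Slc11a2 from −0.026 to 0.062 for oxLDL after LPS (−0.0014 without replicate 3 in both groups, with or without the block). The interaction ranged from −0.23 to 0.80 for Blvrb, −0.31 to 0.081 for Fth1 and −0.50 to 0.20 for Tfrc. The causes were not tested. With 3 pools a group the spread between pools, and for Slc40a1 also the few reads, limit what could be called. Per kilobase of the longest transcript instead of all exons, Slc40a1 stayed lowest and the ferritins highest.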

Other observations

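The genes whose pattern over the 12 libraries lay nearest to that of Hmox1, by the root mean square difference of centred log2 values among 9447 genes, were Gss, for glutathione synthetase (0.32), Ednrb (0.35), Bst1 (0.38), Gbe1, the glycogen branching enzyme (0.38), and Pla2g7, which hydrolyses oxidized phospholipids (0.49), while the median gene was at 1.04. Gss was at 224, 161 and 206 in controls and at 1074, 200 and 890 with both agents, so that replicate 2 of oxLDL+LPS stood below the other 2 as it did for Hmox1. Ednrb was at 131, 118 and 149 in controls and at 1071, 189 and 820 with both. Nearest to Slc40a1 were Slc43a2, an amino acid transporter (0.68), Kcnk13, a potassium channel (0.73), Clec2i (0.83), Gm20658 (0.91) and Ptger2, a receptor for prostaglandin E2 (0.91), with the median gene at 1.90. Slc43a2 was at 5791, 4912 and 6626 in controls, 1203, 452 and 606 with LPS and 3875, 661 and 3225 with both. These values share libraries and pools with those of Hmox1 and Slc40a1 and are a description.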
